A study of Mus musculus with 4 samples.

Results

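H3K36me3 regions that lie in noncoding genes and touch no protein-coding gene were taken from the enriched-region list of a chromatin immunoprecipitation and sequencing (ChIP-seq) study of mouse embryonic stem (ES) cells. A region was chosen when it lay on an autosome and overlapped no protein-coding gene by 1 bp or more in the GENCODE annotation of mm9, and 304 of 31399 autosomal H3K36me3 regions met this rule (0.968%, 95% Wilson interval 0.866 to 1.08%). Together these noncoding-only regions covered 476 kb, or 0.848% of all autosomal bases in the list, and they touched 204 noncoding genes. The libraries were 4 in all, 1 for each of H3K36me3 and H3K9me3 in each of 2 cell types of strain 129S1/SvImJ. WT cells were unmodified ES cells. G34R cells carried an H3f3a allele for H3.3 with arginine in place of glycine 34, expressed from the endogenous H3f3a promoter by allelic replacement, beside an intact H3f3a allele and normal H3f3b. Both were below passage 20, and each group was 1 library.

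Each list pools the cell types, since a bin entered it when it was enriched in WT or in G34R cells, and it gives positions without read values. WT and G34R cells could therefore not be compared at any region, the sequencing depth behind a region is unknown, and there is no spread between replicates. All intervals below are 95% Wilson intervals that cover counting error only, and regions of the same gene are not independent of each other. Neighbouring bins of a region are not independent either, so intervals over bins are too narrow. The authors kept only bins in UCSC genes, so an annotated noncoding gene that UCSC did not list could not enter.

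H3K36me3 is the trimethylated form of lysine 36 of histone H3. It is laid down by SETD2, which travels with elongating RNA polymerase II, so the mark lies along the bodies of transcribed genes and not at their starts. Long noncoding RNAs are transcribed by the same polymerase, and some of them serve as hosts: small nucleolar RNAs (snoRNAs, which guide chemical modification of ribosomal and other RNAs) are cut from their introns, and microRNAs (miRNAs, which repress messenger RNAs through a short seed) are cut from hairpins in them. H3K9me3 is a mark of heterochromatin and of silenced repeats. KDM4 demethylases act on both marks.

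Noncoding-only regions touched 38 miRNA genes, and for 37 of these a mature sequence from RefSeq (GRCm38.p6) was found within the mm9 gene. In all, 69 mature sequences with 60 different seeds were matched, with only 1 arm for some genes, such as the 5p arm of Mir292. Of the 69, 66 lay wholly within a region. The exceptions were both arms of miR-295, of which miR-295-3p lay past the region end, and miR-1906. The miR-290 cluster, the leading miRNA family of mouse ES cells, and the miR-17 to miR-92 cluster, known for driving proliferation, are shown because they are the best known of the miRNA clusters touched and because some of their members share a seed. The miR-290 cluster is shown by the matched 3p arms, of which Mir292 had none, and without miR-293-3p, whose seed GUGCCGC differs. The miR-17 to miR-92 cluster is shown by 1 arm of each miRNA. Capitals mark the seed, bases 2 to 8, and sequences run 5′ to 3′.
miR-290a-3p: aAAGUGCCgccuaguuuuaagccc
miR-291a-3p: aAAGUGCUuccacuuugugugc
miR-291b-3p: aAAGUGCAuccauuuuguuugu
miR-294-3p: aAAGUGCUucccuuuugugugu
miR-295-3p: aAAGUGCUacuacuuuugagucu
miR-17-5p: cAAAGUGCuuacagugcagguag
miR-20a-5p: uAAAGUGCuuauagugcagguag
miR-18a-5p: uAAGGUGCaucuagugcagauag
miR-19a-3p: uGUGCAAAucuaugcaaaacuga
miR-19b-3p: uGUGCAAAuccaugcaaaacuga
miR-92a-3p: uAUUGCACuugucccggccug
The seed AAGUGCU was shared by miR-291a-3p, miR-294-3p and miR-295-3p, AAAGUGC by miR-17-5p and miR-20a-5p, and GUGCAAA by miR-19a-3p and miR-19b-3p. The seeds of the other sequences shown each occurred once among the 69 matched sequences, which hold no 3p arm of Mir292. Among the 5p arms, which are not shown, miR-290a-5p, miR-292a-5p and miR-293-5p shared CUCAAAC, and miR-291a-5p and miR-291b-5p shared AUCAAAG.

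The miR-290 cluster lay in 2 regions that were free of H3K9me3. The first, chr7:3218601-3219600 on mm9, held Mir290, Mir291a, Mir292 and Mir291b on the plus strand, and the other, chr7:3220201-3220800, held Mir293, Mir294 and the first 27 bp of Mir295. The nearest protein-coding gene was Nlrp12, a regulator of inflammatory signalling, which lay 1910 bp from the first region and carried no H3K36me3 region itself. The nearest H3K36me3 region in any protein-coding gene was 55200 bp away. The miR-17 to miR-92 cluster lay in 1 region of 2800 bp, chr14:115442801-115445600 (plus strand), which covered 72.7% of its host gene Mir17hg and again overlapped no H3K9me3 region. A further cluster, Mir23a, Mir27a and Mir24-2, lay in a region of the minimum width, chr8:86732401-86733000, and Mir101a in a region of 800 bp on chromosome 4, inside the host gene E130102H24Rik.

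Noncoding-only regions also touched 33 snoRNA genes. Gas5 is a growth-arrest gene whose introns encode box C/D snoRNAs. The 5 annotated snoRNAs of Gas5 that lay in noncoding-only regions are shown from the mm9 plus strand, since they mark what the regions over such host genes contain. Capitals mark the C box TGATGA and the D box CTGA where both were found within 15 bases of the ends. Of the 33 snoRNAs, 17 have SNORD names, the box C/D class, and 10 of these held both boxes in this form. The 13 with SNORA names are of the box H/ACA class, which is not defined by these boxes, and 2 of the 3 whose names give no class held both.
SNORD75: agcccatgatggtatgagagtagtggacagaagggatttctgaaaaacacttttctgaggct
SNORD24: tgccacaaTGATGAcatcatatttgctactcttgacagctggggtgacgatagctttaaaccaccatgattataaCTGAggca
SNORD44: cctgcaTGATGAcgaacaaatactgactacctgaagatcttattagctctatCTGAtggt
SNORD78: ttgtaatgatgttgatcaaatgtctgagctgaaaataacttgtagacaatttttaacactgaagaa
SNORD77: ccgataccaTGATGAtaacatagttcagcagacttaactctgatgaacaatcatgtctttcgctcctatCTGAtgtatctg
SNORD75, SNORD24, SNORD44 and SNORD78 lay in the region chr1:162965801-162967400, and SNORD77 in chr1:162967601-162968200. These 2 regions covered 53.4% of Gas5, and neither overlapped H3K9me3.

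Coverage varied among the snoRNA hosts. Regions covered 79.1% of Snhg1, the host of SNORD26 to SNORD31 and Snord22, in 1 region of 2400 bp. Coverage was 75.1% for Snhg7, which holds Snora43 and Snora17, and 74.1% for Snhg12, which holds Snora16a, Snora44, Snora61 and Snord99. Snhg4 on chromosome 18 was covered over 80.9%. A region of 5600 bp covered 88.6% of 9430008C03Rik, with 3 SNORA71 copies in it. Gm15832, which holds Snord89, was covered over 13.5%. No region lay in Snhg5 or Snhg9. Snhg3 carried none that met the rule, and H3K36me3 regions that touched a protein-coding gene covered 35.3% of it. Of the 15 noncoding-only regions touching a snoRNA gene, 2 overlapped H3K9me3 (13.3%, 3.74 to 37.9%), and of the 15 touching a miRNA gene, 1 did (6.67%, 1.19 to 29.8%).

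The widest noncoding-only stretch of unique sequence was the imprinted region of Meg3, Rian and Mirg, long noncoding RNAs expressed from the maternal chromosome. It held 20 of the 304 regions over 50.0 kb, spread from chr12:110782801 to 110982200, and every bin of them occurred once in the genome. Meg3, whose RNA is known as a growth suppressor, was covered over 85.7% of its 30.7 kb by 4 regions, of which the largest, chr12:110787001-110810000, was 23000 bp wide. Rian, a host of tandem snoRNAs, was covered over 24.3% by 8 regions, and Mirg, a miRNA host, over 47.0% by 5.

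The marks took different places at Meg3. H3K9me3 covered the start of the gene, chr12:110779201-110782600, and the first H3K36me3 region began 3.59 kb from the gene start, after that H3K9me3 region ended. A further 3 H3K9me3 regions of 600 to 1000 bp lay inside the 23000 bp region and covered 2200 bp of it. The remaining 3 of the 7 H3K9me3 regions of this stretch lay beyond Meg3, over Rtl1, a protein-coding gene of retrotransposon origin on the opposite strand. Rian and Mirg had no H3K9me3 region. Of 56 miRNA genes between the start of Meg3 and the end of Mirg, 21 were touched by a noncoding-only region (37.5%, 26.0 to 50.6%), and of 23 snoRNA genes 3 were (13.0%, 4.54 to 32.1%). Over all autosomal genes free of protein-coding genes the shares were 5.21% for miRNA and 3.60% for snoRNA genes. The sets are unlike, since the 56 miRNA genes include some within Rtl1, such as Mir127, which no noncoding-only region can touch. The shares over all genes also include this stretch, and only 17 of the 38 touched miRNA genes lay elsewhere. Since the stretch is described for its wide coverage, a high share there partly follows from its choice. The touched miRNA genes included Mir770 within Meg3, Mir337, Mir540 and Mir665 beside Rtl1, and Mir541, Mir412, Mir369 and Mir410 at the far end, while the snoRNA array between Rian and Mirg lay outside all regions.

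**Figure D1:**
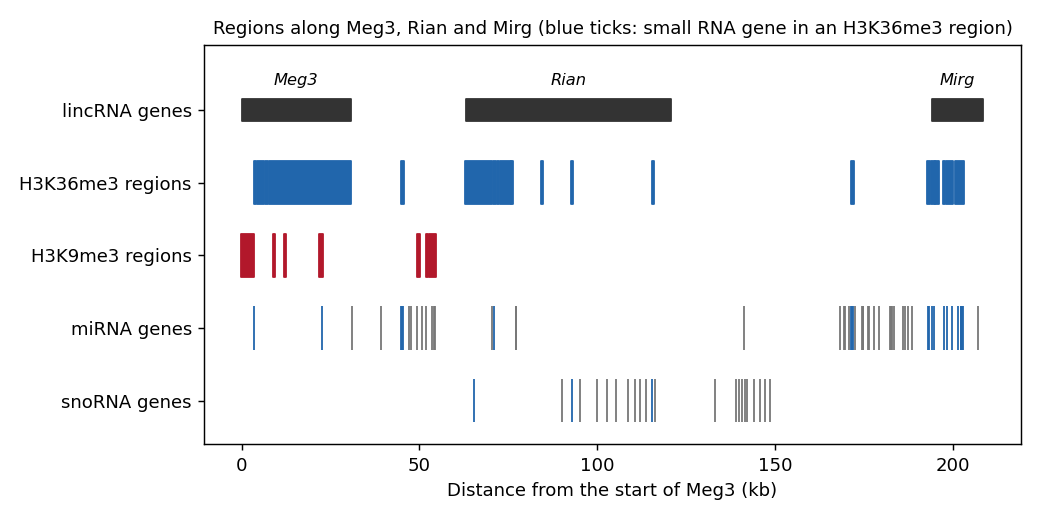
Positions of genes and listed regions over 208 kb, with the distance from the start of Meg3 in kb on the x axis; grey ticks are small RNA genes outside noncoding-only regions and blue ticks those in them. H3K9me3 lies over the start of Meg3 and H3K36me3 regions, which cover 85.7% of the gene, follow it.

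The rest of a list of known noncoding genes showed a wide range of coverage. Of 39 genes in that list, the autosomal annotation held 22 as noncoding and 3 as protein-coding, and 14 were not found by name. A noncoding-only region lay in 14 of the 22, against 204 of all 13235 autosomal noncoding genes (1.54%), most of which are small RNA genes or pseudogenes. Malat1, an abundant nuclear RNA of speckles, was covered over 65.9% of its length by 1 region of 4600 bp, whereas its neighbour Neat1, the scaffold of paraspeckles, was covered over 5.78% by 2 regions of 600 bp each. Cyrano (1700020I14Rik), a conserved RNA that triggers the decay of miR-7, carried 5 regions of 600 to 1400 bp over 33.3% of its length. Pvt1, the long RNA next to Myc, carried 15 regions of 600 to 1800 bp scattered from 18.7 to 207 kb past its start, and these made up 3.53% of its 340 kb. Malat1, Neat1, Cyrano and Pvt1 had no noncoding-only region that overlapped H3K9me3.

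Tug1, a long RNA of broad expression, carried both marks. All 3 of its regions, 1000, 2400 and 1000 bp wide, overlapped H3K9me3, over 800, 1000 and 1000 bp. H3K36me3 covered 48.8% of Tug1 and H3K9me3 55.4%. Every bin of the 3 regions had 1 copy in the genome. Some imprinted or developmental RNAs carried H3K9me3 and no noncoding-only H3K36me3 region. H19, a maternally expressed miRNA host, was covered by H3K9me3 over 70.7%, and Miat over 34.1%. Airn and Nespas, paternally expressed antisense RNAs, overlap protein-coding genes and were covered by H3K9me3 over 14.3% and 33.4%. H3K36me3 regions that touched a protein-coding gene covered 0.505% of Airn and 45.5% of Nespas, which thus carried more H3K36me3 than H3K9me3. Rmst, a neuronal RNA, carried neither mark.

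**Figure D2:**
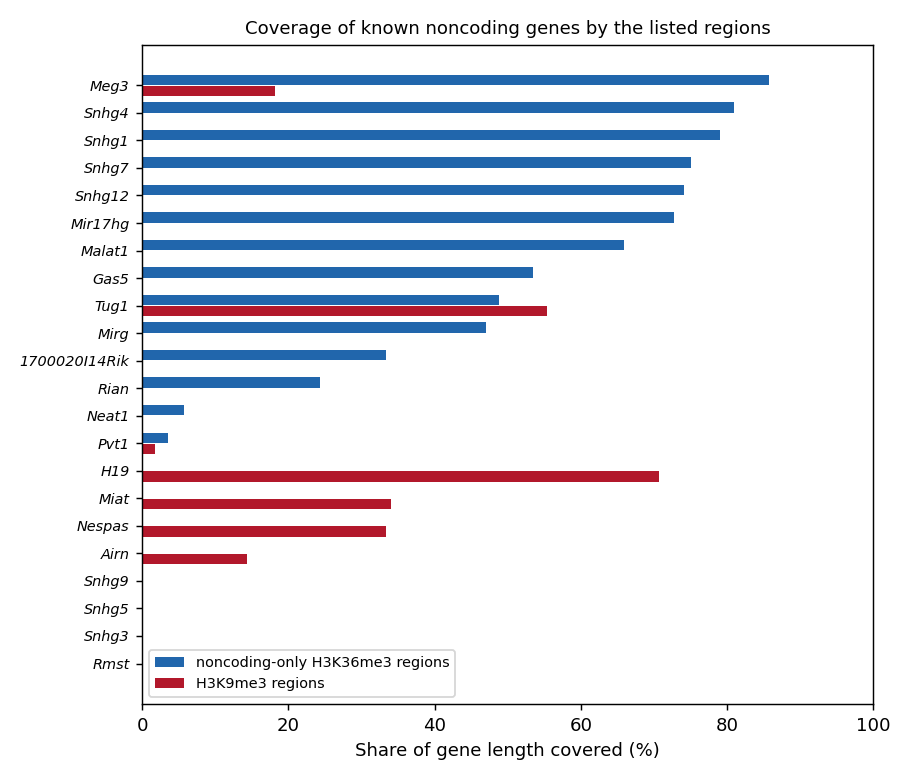
Share of the length of each of the 22 known noncoding genes in the annotation (x axis, percent) covered by noncoding-only H3K36me3 regions (blue) and by H3K9me3 regions (red). Meg3 and 4 snoRNA hosts reach at least 74.1%, and Tug1 and Meg3 carry both noncoding-only H3K36me3 and H3K9me3 over more than 10% of their length.

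By type, 226 regions (74.3%, 69.2 to 78.9%) touched a lincRNA gene, the annotation's type for long intergenic noncoding RNAs, although only 496 of its 1232 autosomal lincRNA genes overlap no protein-coding gene. A further 44 (14.5%, 11.0 to 18.9%) were placed in a processed transcript, which is a long noncoding gene of no closer type. Another 27 (8.88%, 6.18 to 12.6%) were placed in an antisense gene, and 7 (2.30%, 1.12 to 4.68%) touched small RNA genes only. Antisense here means a gene typed as processed transcript that has a transcript typed antisense, since none of the antisense genes with a region had that type as a gene. Pseudogenes were touched by 7 regions, each of which also touched a gene of another type. More than 1 noncoding gene was touched by 110 regions (36.2%).

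Few noncoding genes carried the mark. Among genes that overlap no protein-coding gene, 41 of 496 lincRNA genes were touched (8.27%, 6.15 to 11.0%), 38 of 729 miRNA genes (5.21%, 3.82 to 7.07%), 12 of 252 antisense genes (4.76%, 2.74 to 8.14%), 33 of 916 snoRNA genes (3.60%, 2.58 to 5.02%) and 25 of 781 processed transcripts (3.20%, 2.18 to 4.68%). Pseudogenes were at 7 of 2811 (0.249%, 0.121 to 0.513%). Genes of spliceosomal snRNAs were at 0 of 847, with an upper bound of 0.451%. Protein-coding genes of like length carried H3K36me3 more often. Long noncoding genes of 2 to 10 kb were touched in 5.53% (4.04 to 7.53%) against 32.3% (31.1 to 33.6%) of protein-coding genes, and those of 10 to 50 kb in 6.41% (4.47 to 9.10%) against 47.7% (46.6 to 48.8%). Up to 2 kb the shares were 2.45% (1.19 to 4.97%) and 3.09% (2.54 to 3.76%), with overlapping intervals. The part of the UCSC gene filter in these differences was not tested.

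**Figure D3:**
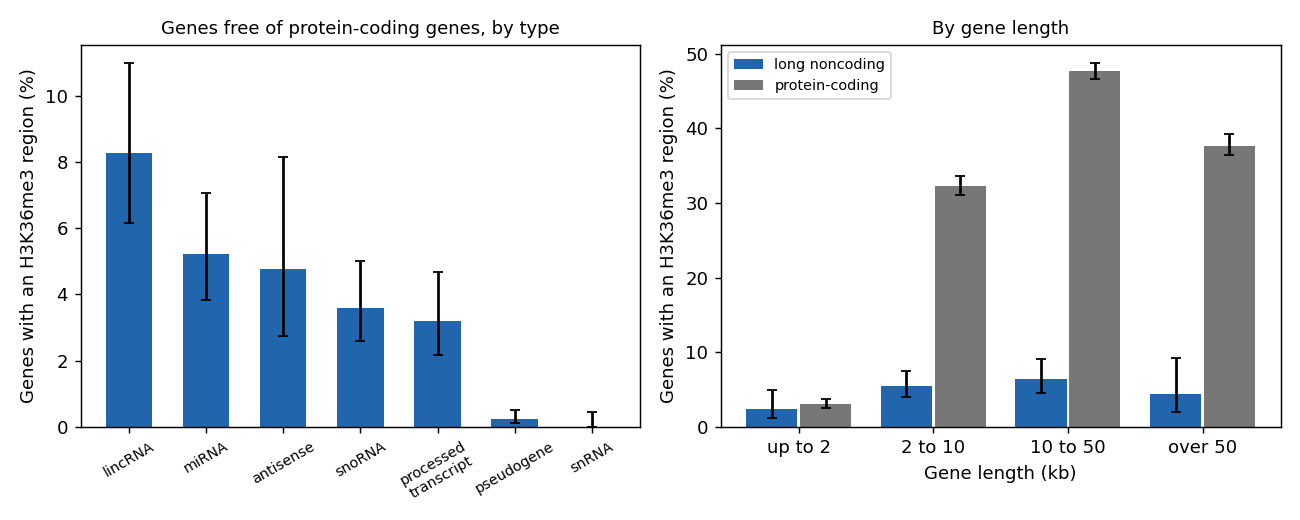
Left, share of autosomal noncoding genes free of protein-coding genes that carry a noncoding-only H3K36me3 region, by type; right, the same for long noncoding genes and for protein-coding genes with any H3K36me3 region, by gene length in kb. Bars are percentages with 95% Wilson intervals, and lincRNA genes stand at 8.27% with snRNA genes at 0.

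Within long noncoding genes the mark was low over the first part of the gene. For 55 such genes of at least 5 kb with a noncoding-only region, each cut into 5 equal parts from start to end, mean coverage was 14.2% in the first part, 33.4% in the second, and 29.8, 28.1 and 27.8% in the remaining 3. In 6812 protein-coding genes with the mark it went from 9.67% through 27.0, 36 and 42.2% to 43.7%, so it kept climbing to the gene end there. Leaving out genes of 2 repeated stretches described below gave 11.0, 31.5, 27.7, 25.9 and 27.9% over 49 genes. Exonic bins were in these regions more often than others: 1.56% (1.45 to 1.68%) of exonic noncoding-only bins of 200 bp, against 0.711% (0.678 to 0.746%) of other noncoding-only bins, and 1.37% against 0.323% outside those stretches.

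Most noncoding-only regions were narrow. The methods word the size filter on merged regions as leaving out wide ones, but no listed region was below 600 bp, so the filter was read as a minimum. Their median width was 800 bp (quartiles 600 and 1600 bp), against 1000 bp (600 and 2000 bp) for regions touching protein-coding genes. The minimum width of 600 bp was met by 33.9% (28.8 to 39.4%), against 26.8% (26.4 to 27.3%). At least 5 kb was reached by 10 regions (3.29%, 1.80 to 5.95%), against 6.37% (6.10 to 6.64%), and these 10 were 4 regions of 2610005L07Rik, and those of Meg3, Rian, Gm13227, Gm16889, Gm14230 and 9430008C03Rik. Median G+C over regions was 45.6% (41.2 and 49.0%), against 46.9% for regions touching protein-coding genes. Without the 2 repeated stretches described below the median of noncoding-only regions was 47.0%. Over 200 bp bins it was 45.0% in noncoding-only regions, 48% in other H3K36me3 regions and 43.0% for all noncoding-only bins.

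The regions formed 113 loci when gaps of up to 100 kb were bridged, on all 19 autosomes, and 66 loci held 1 region. The locus of Gm16889 on chromosome 4 alone held 61 regions over 89.6 kb. After Meg3 followed 2610005L07Rik on chromosome 8 with 16 regions over 88.2 kb, Pvt1 with 15, Gm13227 on chromosome 4 with 9, and 4 loci of 6 regions each, led by Gm16025, 2410003L11Rik, Gm11019 and Gm17452.

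Distance to the nearest protein-coding gene had a median of 17160 bp (87 to 362508 bp). At most 1 kb separated 24 regions from such a gene, 54 lay at 1 to 5 kb, 82 at 5 to 20 kb, 116 at 20 to 100 kb and 28 beyond 100 kb. Among the widest regions of these classes, those of Snhg7 and Snhg1 lay 583 and 741 bp from Fam69b and Slc3a2, Gm14230 lay 2212 bp from Tgif2, and the regions of Gm11019, 600 to 2400 bp wide, lay 222606 to 236006 bp past the end of Enc1. The nearest protein-coding gene carried H3K36me3 for 226 of 304 regions (74.3%, 69.2 to 78.9%), whereas 35.2% of the 21418 autosomal protein-coding genes did.

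Past the 3′ end of a protein-coding gene, within 5 kb, lay 46 regions (15.1%, 11.5 to 19.6%), and within 5 kb before the 5′ end lay 32 (10.5%, 7.56 to 14.5%). The downstream share was 8.72% when regions within 2 kb of each other were joined. As a share of the noncoding-only bins available, 1.93% (1.70 to 2.18%) of those within 5 kb downstream lay in such regions, against 0.880% (0.769 to 1.01%) upstream and 0.785% (0.750 to 0.820%) farther away. Beyond 100 kb the share was 0.154% (0.130 to 0.183%). In the first 1 kb, where many listed regions also touch the protein-coding gene and so fall outside the rule, any H3K36me3 region held 6.18% (5.39 to 7.08%) of downstream bins and 0.417% (0.280 to 0.620%) of upstream bins.

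**Figure D4:**
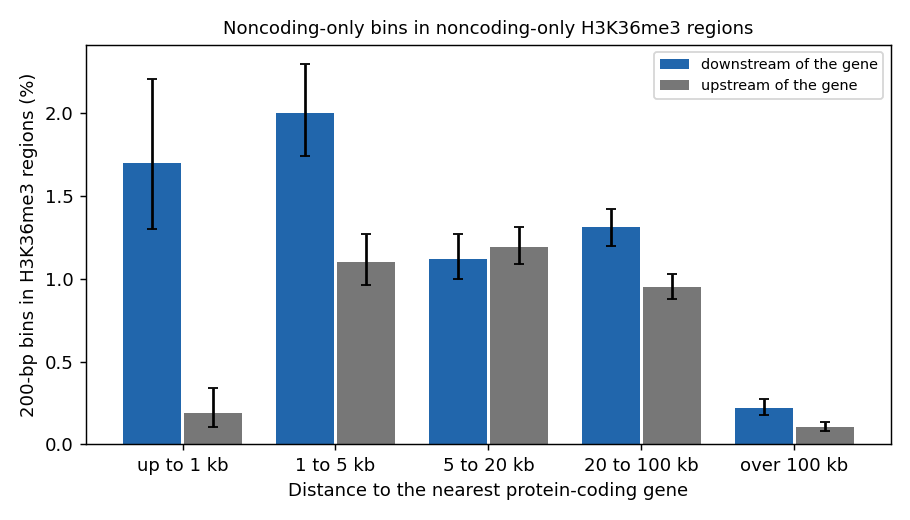
Share of noncoding-only 200 bp bins (y axis, percent) that lie in noncoding-only H3K36me3 regions, by distance to the nearest protein-coding gene and by side, with 95% Wilson intervals. At 1 to 5 kb downstream bins stand at 2.00% and upstream bins at 1.10%, and beyond 100 kb both are below 0.3%.

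Reads that run on from a neighbouring gene and transcription of the noncoding gene itself cannot be told apart from positions alone. Of the 46 downstream regions, 37 had a neighbour with H3K36me3 and 22 lay within 2 kb of an H3K36me3 region in a protein-coding gene. In 42 the noncoding gene counted for the region was on the opposite strand to the neighbour. Upstream, 28 of 32 had a neighbour with H3K36me3, 4 lay within 2 kb of such a region and 25 noncoding genes were on the opposite strand. These counts are over regions, and several regions can share a gene. A region in genes of both strands was counted by a single gene. Regions in both Gm16889 (minus strand) and Gm17317 (plus strand) were counted by Gm16889, so some of the 42 also lay in a gene on the strand of the neighbour. Counted by long noncoding gene free of protein-coding genes, 3 of the 11 carrying genes within 5 kb downstream were on the strand of the neighbour (27.3%, 9.75 to 56.6%), against 64 of all 139 such genes (46.0%, 38 to 54.3%). Upstream the counts were 4 of 21 (19%, 7.67 to 40.0%) and 75 of 410 (18.3%, 14.9 to 22.3%), and on both sides the intervals overlapped.

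Counted by gene, long noncoding genes carried a region more often where the neighbour carried the mark. Among long noncoding genes free of protein-coding genes, 19 of 194 within 5 kb upstream of a neighbour with H3K36me3 carried a region (9.79%, 6.36 to 14.8%), against 2 of 216 where the neighbour had none (0.926%, 0.254 to 3.31%). Downstream the counts were 7 of 55 (12.7%, 6.30 to 24.0%) and 4 of 84 (4.76%, 1.87 to 11.6%), with overlapping intervals. Over 5 kb away they were 30 of 347 (8.65%, 6.12 to 12.1%) and 16 of 633 (2.53%, 1.56 to 4.07%). Tug1 upstream of Morc2a, Snhg1 upstream of Slc3a2 and Gm16598 upstream of Rad18 were among the 19. The 2 without a marked neighbour were Gm11974 near Myo1g and Gm10863 near Sox10.

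H3K9me3 was frequent in noncoding-only regions. It overlapped 157 of 304 (51.6%, 46.0 to 57.2%), whereas 8.69% (8.38 to 9.0%) of 31095 H3K36me3 regions touching a protein-coding gene overlapped it. When the overlap had to cover 50% of both regions, the shares were 14.8% (11.3 to 19.2%) and 3.26% (3.07 to 3.46%). By type the share was 49.1% (42.7 to 55.6%) for lincRNA, 63.0% (44.2 to 78.5%) for antisense, 63.6% (48.9 to 76.2%) for processed transcript and 14.3% (2.57 to 51.3%) for small RNA regions. By distance it was 29.2% up to 1 kb, 38.9% at 1 to 5 kb, 53.7% at 5 to 20 kb, 69.8% at 20 to 100 kb and 14.3% beyond 100 kb.

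A large part of this overlap came from 2 stretches of repeated genes, which were singled out after the values were seen. On chromosome 4, from 145001601 to 146864400, 79 regions over 118 kb lay in Gm16889, Gm17317, Gm13227, Gm13147, Gm17452 and neighbouring genes, and 76 overlapped H3K9me3 (96.2%, 89.4 to 98.7%). Regions touching protein-coding genes in the same stretch overlapped it in 136 of 247 cases (55.1%, 48.8 to 61.1%). On chromosome 8, from 19792801 to 20012600, 15 of 16 regions over 88.2 kb overlapped it. There the widest region of all, 41400 bp at chr8:19859601-19901000, lay wholly within H3K9me3 and covered, with 1 more region, 99.4% of 6820431F20Rik. Outside both stretches 66 of 209 regions overlapped H3K9me3 (31.6%, 25.7 to 38.2%). By type the share there was 21.1% (15.2 to 28.6%) for lincRNA, 61.5% (42.5 to 77.6%) for antisense and 55.9% (39.5 to 71.1%) for processed transcript regions. By distance it was 10.5% up to 1 kb, 28.3% at 1 to 5 kb, 33.3% at 5 to 20 kb, 47.5% at 20 to 100 kb and 14.3% beyond 100 kb. These splits count regions, so loci with many regions weigh in them. Among the loci there with at least 6 regions, 1 of 20 overlapped at Meg3, 0 of 15 at Pvt1 and 6 of 6 at Gm16025. At 2410003L11Rik and at Gm11019 it was 0 of 6 each, and all regions of Gm11019 lay beyond 100 kb.

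Part of the sequence of these stretches recurs in the genome. By the central 50 bases of each bin, 33 of 36 bins had 1 copy in the widest region of the chromosome 4 stretch. In that of the chromosome 8 stretch 35 of 207 did. A read of 50 bases from each of the following points would match more than 1 place. They are shown as examples from the widest region of each stretch, plus strand of mm9. Each was picked among the bins of that region with 2 to 5 copies, all on its chromosome. The bin with the most copies in noncoding-only regions was taken, so the counts of copies given below were favoured by that choice.
Gm13227, chr4:145027676-145027725: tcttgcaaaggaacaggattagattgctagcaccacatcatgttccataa
2610005L07Rik, chr8:19884276-19884325: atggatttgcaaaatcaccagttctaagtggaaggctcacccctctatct
The Gm13227 sequence had 2 exact copies, both in noncoding-only regions and in H3K9me3 regions. The 2610005L07Rik sequence had 4 copies on chromosome 8, of which 3 lay in noncoding-only regions and 2 in H3K9me3 regions.

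Taking the central 50 bases of each 200 bp bin, 72.9% (71.1 to 74.7%) of bins in noncoding-only regions had 1 copy in the genome, against 98.0% of other H3K36me3 bins and 84.8% of all noncoding-only bins. The share was 64.3% (60.4 to 68.1%) in the chromosome 4 stretch, 20.0% (16.5 to 23.9%) in the chromosome 8 stretch and 94.0% (92.6 to 95.1%) outside both. Of bins with 2 or more copies 95.2% (93.3 to 96.6%) were also in the H3K9me3 list, and of bins with 1 copy 38.1% (35.9 to 40.4%). Most bins with 2 or more copies lay in the 2 stretches. There 91.5% (chromosome 4) and 98.9% (chromosome 8) of all bins in noncoding-only regions were in the H3K9me3 list, whatever their copies. The alignment of the authors kept reads with up to 5 matches. How far reads from other copies entered these regions was not tested. Among the 177 regions outside both stretches in which every bin had 1 copy, 42 overlapped H3K9me3 (23.7%, 18.1 to 30.5%).

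**Figure D5:**
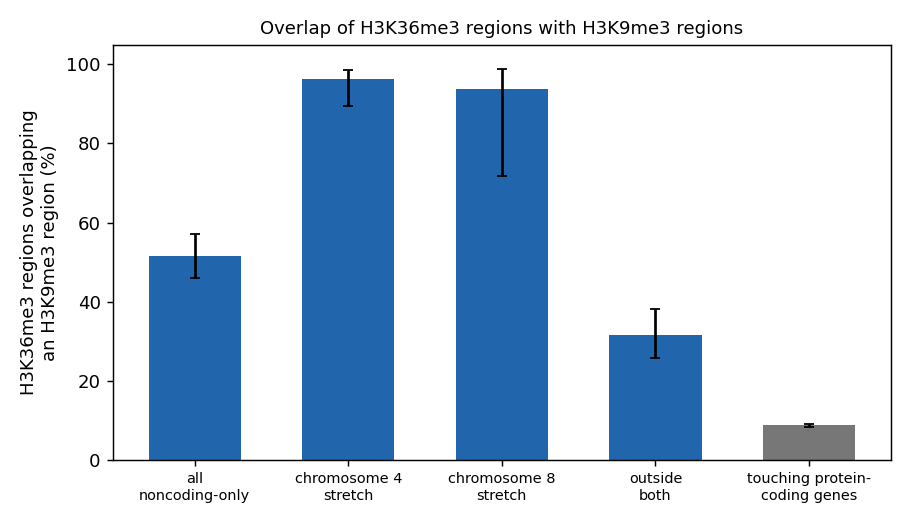
Share of H3K36me3 regions (y axis, percent) that overlap an H3K9me3 region by 1 bp or more, for all noncoding-only regions, those of the 2 repeated stretches, those outside both, and regions touching protein-coding genes, with 95% Wilson intervals. The share is 51.6% for all noncoding-only regions, 31.6% outside both stretches and 8.69% for regions touching protein-coding genes.

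Counted by locus, 43 of 107 loci outside both stretches had a region that overlapped H3K9me3 (40.2%, 31.4 to 49.7%). Of 42 such loci with at least 2 regions, all regions overlapped it in 15, none in 20 and some in 7. Loci with overlap throughout included Tug1, the 6 regions led by Gm16025, whose nearest protein-coding gene is C130026I21Rik, Speer7-ps1, Pisd-ps2, 3110053B16Rik near Zfp125 and BC023719 on chromosome 17. Loci with none included Pvt1, 2410003L11Rik, Gm11019, Cyrano, the Malat1 and Neat1 locus, 3110056K07Rik, 4933433G15Rik and the miR-290 cluster. In Igf2as, the antisense neighbour of the imprinted Igf2, the only region, 600 bp wide, lay wholly within H3K9me3. Counted by region again, 3 of the 30 that touch a miRNA or snoRNA gene overlapped H3K9me3 (10.0%, 3.46 to 25.6%). Among other regions outside both stretches 63 of 179 did (35.2%, 28.6 to 42.4%). Many of the 30 lay in the stretch of Meg3, Rian and Mirg, so they are not independent of each other. The regions with H3K9me3 on these small RNA genes were those of Meg3, 2700038G22Rik and SNORA25.

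The gene types rest on an early annotation. Of 133 long noncoding genes and pseudogenes that carried a region, RefSeq (GRCm38.p6) listed 59 as long noncoding RNA, 7 as transcribed pseudogenes, 6 as other pseudogenes, 1 as miscellaneous RNA and 7 as protein-coding (Tmem134, 9930104L06Rik, Oaz2, Gm10044, 1810058I24Rik, Gm12569 and Spcs3), and 53 found no match by name or identifier. The 7 genes accounted for 10 of the 304 regions.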

How the data were processed

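ChIP-seq was carried out by the authors on H3K36me3 and H3K9me3 in WT and G34R ES cells (1 library each). Per their methods, reads were aligned to mm9 with Bowtie 1.0.0, keeping reads with up to 5 matches, and duplicates were removed in SeqMonk. Counts in 200 bp bins were scaled to total reads and matched between cell types, bins in UCSC genes above a high percentile in either were kept, and neighbours were merged with bedtools 2.20.1. Merged bins blur gaps, and a percentile sets the list size. Bowtie and bedtools versions are as in the submitters' processing notes. The deposited values are positions (chromosome, start and end), with no other measurement, and coordinates are 1-based on mm9 (NCBIM37).

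From these, overlap with GENCODE vM1 genes, distance to the nearest protein-coding gene, overlap with H3K9me3 and exact copies in the genome were computed with Python 3.11.15, numpy 2.4.6, pandas 2.3.3 and numba 0.67.0, and the functions were tested on simulated data. A region takes the first type touched in the order lincRNA, antisense, processed transcript, small RNA, pseudogene. Shares have 95% Wilson intervals, and no test was run across regions, which are not replicates. Named genes were the 12 with most covered bases, those of the 3 widest regions per distance class, a list of known noncoding genes and miRNA or snoRNA genes, and their neighbours. Others were named after their values were seen. The regions and lists were chosen with earlier results of these data known. WT and G34R cells were not compared, as the lists hold no values, and 8 sex-chromosome regions were left out. Alternatives covered the overlap, distance, width, merging and copy rules.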

Additional observations from a re-analysis of the deposited data

How the results depend on the processing

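No paired analysis was possible because each list pools its libraries and no replicates exist. The number of regions went from 304 to 149 both when at least 1 kb was required and when regions within 2 kb were joined, and median width then became 1600 bp in both cases. The share within the downstream limit was 6.58% at 1 kb, 20.7% at 10 kb and 8.72% after joining. The lincRNA share was 79.2% at a width of at least 1 kb and, in alternatives chosen after seeing the data, 82.6% with genes that have a transcript typed lincRNA and 67.9% without the 2 repeated stretches. H3K9me3 overlap fell from 51.6% to 14.8% under a reciprocal overlap of 50%, and, chosen after seeing the data, was 31.6% without both stretches, 36% without that of chromosome 4 and 27.3% for regions whose bins all have 1 copy. The share of all noncoding genes touched was 1.54%, 2.79% for genes of at least 1 kb and 2.02% for genes free of protein-coding genes. These moves follow from the sets counted. Under the other alternatives the number of regions ranged from 226, when only those over 5 kb from protein-coding genes were kept, to 321, and each share stayed within its 95% interval. Depth is unknown, so a gene without a region may still carry the mark.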
